A study of Mus musculus with 60 samples.

Results

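The proteasome genes were taken as every gene whose symbol starts with Psma, Psmb, Psmc, Psmd or Psme followed by a number. The rule matched 44 of the 18193 genes measured with their own probe set (the group of short array probes that reads 1 transcript). Of these, 2 matched by name only, Psmc3ip and Psme3ip1, which encode no proteasome subunit and were set aside. That left 42 genes. Where a gene had several probe sets, the one with the highest mean over the 60 arrays stood for it, and this applied to 23 of the 44. Psme2, which encodes the partner of Psme1 in an activator ring, was read only by a probe set that also carries the symbol of a copy gene, and it was not analysed here.

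The proteasome is the protease that degrades ubiquitin-tagged proteins. Its 20S core is a barrel of alpha rings, which form the gate, around beta rings, which hold the catalytic sites, and it is capped by the 19S particle, whose ATPases unfold the substrate. In leukocytes, and in other cells exposed to interferon, the catalytic subunits Psmb5, Psmb6 and Psmb7 are replaced by Psmb8, Psmb9 and Psmb10 to form the immunoproteasome, which yields many of the peptides shown on MHC class I.

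Lungs of male Balb/c mice were profiled on Affymetrix whole-genome mouse arrays, 1 array per mouse. Mice inhaled an aerosol of superparamagnetic iron oxide nanoparticles (SPIO, 365 ug total mass per the labels) for 4 h, or a sham atmosphere of humidified helium and oxygen with HEPA-filtered air (CON). Right diaphragmatic lobes were collected 0, 6, 24, 48, 96 and 168 h after the exposure ended, from 5 SPIO and 5 CON mice at each time, which gave 12 groups. All mice were described as of 1 strain and sex, and the labels name no genetic change. The mice of the 96 h groups also went through plethysmography, and those of the 168 h groups were housed in metabolism cages on a liquid diet, so time and handling cannot be told apart there. The RNA came from whole lobes, in which fewer cells of a type and less RNA per cell cannot be told apart.

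Array medians of the deposited log2 values ranged from 5.53 to 5.64. The 7 markers of lung epithelium had a mean of 12.87 in both groups at 0 h, where 0 of 7 differed by limma (0 at an unadjusted p under 0.05). Of the 60 arrays, 2 stood apart. CON 0 h replicate 1 had an Xist value of 11.94 against 5.16 to 6.02 on the other 59 arrays and an Alb value of 14.02 against at most 11.35. Xist is a transcript of female cells and Alb of hepatocytes, so this array was at odds with the stated male lung. The reason was not tested, and the array was kept in the main fit. SPIO 24 h replicate 3 had the highest mean of Psmb8, Psmb9 and Psmb10 among the 60 arrays, 10.72. Counts and named genes at 0 and 24 h are therefore also given from a fit without these 2 arrays where a call or a count changed.

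The members were mostly abundant transcripts. The testis subunit Psma8 and the thymus subunit Psmb11 were dim, with means of 3.97 and 3.86 over the arrays. The other 40 had mean log2 values from 7.78 to 12.03, and their means lay between percentiles 59.1 and 98.1 of all genes measured, with a median percentile of 93.2. A difference between 2 probe sets is not a difference in abundance, so levels below are set only against the same gene in other groups.

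The 3 immunoproteasome subunits were higher in SPIO than in CON lung at 24 h, with fold changes between 1.42 and 1.48. Psmb10 was higher than in CON at 0 h as well, when the sham group was the lowest of the 12 groups in all 3 genes. A wider and smaller rise of other 20S and 19S genes was also called at 24 h, when the sham group was low in these genes. The alpha ring gene Psma7 lay lower in SPIO lung from 6 h to 168 h. Each comparison below is SPIO minus CON on the log2 scale from limma, 1 model over the 12 groups, with p-values adjusted by Benjamini-Hochberg over the 18193 genes and a call at an adjusted p under 0.05.

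Of the 42 genes, 1 was higher at 0 h and 0 lower, where 3.67% of all genes were called (2.56% higher). At 6 h 1 was lower and 0 higher, against 1.17% of all genes (0.407% lower). At 24 h 18 were higher and 3 lower, which is 50% of the members against 23.9% of all genes (20.3% higher, 3.66% lower). At 48 h 5 were higher and 2 lower, or 16.7% against 12.5% (10.7% higher, 1.89% lower). At 96 h 2 were lower and 0 higher, against 1.41% (0.885% lower), and at 168 h 3 were lower and 0 higher, against 2.19% (1.62% lower). The median change of the 42 genes was 0.03 at 0 h, 0.16 at 24 h and -0.10 at 168 h, where the medians of all genes were 0.03, 0.09 and 0.01. Without both arrays that stood apart 3 were higher at 0 h, against 2.58% of all genes, and 16 were higher and 3 lower at 24 h, against 17.7% and 3.09%. Psmb8 and Psmb9 were gained at 0 h, and Psmd14 and Psme4 were lost at 24 h. In all, 23 members were called at 1 time or more and 19 at none.

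**Figure D1:**
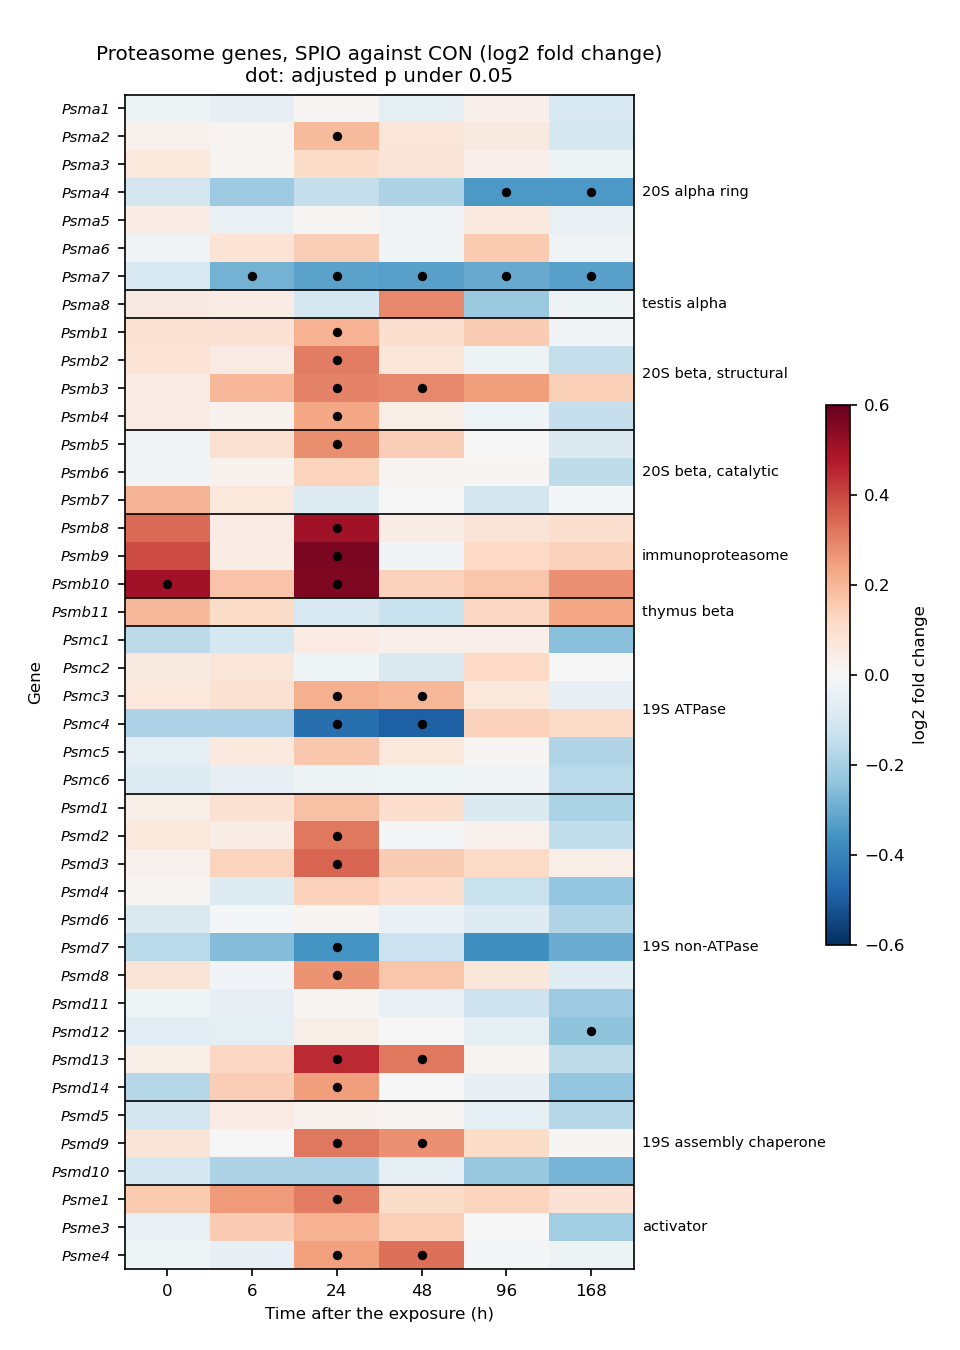
Log2 fold change of SPIO against CON (colour, from -0.6 in blue to 0.6 in red) for the 42 proteasome genes (rows, grouped by role) at the 6 times after the exposure (columns, h). Dots mark an adjusted p under 0.05: 18 higher and 3 lower genes at 24 h, and Psma7 lower at 5 of the 6 times.

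The immunoproteasome subunits came first in the size of their rise. Psmb10 (chromosome 8, GRCm38.p6) carries the trypsin-like site of the immunoproteasome. Psmb8 and Psmb9, neighbours in the MHC region of chromosome 17, carry the chymotrypsin-like site and the site that takes the place of the caspase-like one. The 250 bases before the start of each gene, and of Psmb5, the constitutive counterpart of Psmb8, are shown because the immunoproteasome subunits had the largest rises of the members at 24 h and Psmb5 was the catalytic counterpart called with them at 24 h. They are RefSeq sequences of build GRCm38.p6, printed 5′ to 3′ on the gene's own strand, at chr17:34197945-34198194 (Psmb8, plus strand), chr17:34187331-34187580 (Psmb9, minus strand), chr8:105938393-105938642 (Psmb10, minus strand) and chr14:54617996-54618245 (Psmb5, minus strand). Capitals mark matches to the motifs named after them.
Psmb8: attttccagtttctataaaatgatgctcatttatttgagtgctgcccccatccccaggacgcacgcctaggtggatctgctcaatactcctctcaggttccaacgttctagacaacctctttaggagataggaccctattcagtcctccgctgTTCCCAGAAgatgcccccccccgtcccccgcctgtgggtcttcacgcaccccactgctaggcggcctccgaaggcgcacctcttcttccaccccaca
Psmb9: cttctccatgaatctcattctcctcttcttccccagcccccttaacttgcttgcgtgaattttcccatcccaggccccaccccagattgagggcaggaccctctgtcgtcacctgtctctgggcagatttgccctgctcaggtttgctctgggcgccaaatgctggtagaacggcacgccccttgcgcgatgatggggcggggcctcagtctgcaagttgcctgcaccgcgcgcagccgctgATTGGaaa
Psmb10: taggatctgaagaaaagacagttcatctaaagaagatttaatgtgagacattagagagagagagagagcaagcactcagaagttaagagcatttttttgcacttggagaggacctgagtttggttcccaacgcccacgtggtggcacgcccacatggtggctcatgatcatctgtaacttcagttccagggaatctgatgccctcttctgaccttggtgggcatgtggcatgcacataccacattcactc
Psmb5: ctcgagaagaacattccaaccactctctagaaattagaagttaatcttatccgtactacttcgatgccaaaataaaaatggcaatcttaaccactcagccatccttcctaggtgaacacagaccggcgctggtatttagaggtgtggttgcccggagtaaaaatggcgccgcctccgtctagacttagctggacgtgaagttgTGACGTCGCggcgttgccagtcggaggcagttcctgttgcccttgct

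The capitals in Psmb8 match the STAT site letters TTCNNNGAA, 97 to 89 bases before the start. Those in Psmb5 match TGACNNNGC, the core of the antioxidant response element, 47 to 39 bases before it. Those in Psmb9 are CCAAT on the other strand, 8 to 4 bases before it. Both strands were searched, and windows were available for 35 of the 42 genes (37 promoters) and for 32851 promoters in all. TTCNNNGAA was in 2.7% of the members' promoters and 7.02% of all, and TGACNNNGC in 13.5% and 10.2%, the latter in Psmb5, Psmb6, Psmc6, Psmd12 and Psmd9. CCAAT was in 37.8% and 33.8%. GAAA and GAAA 2 bases apart, an interferon-type pattern, were in 8.11% and 2.98% (Psmb3, Psmd4 and Psmd9), GGGA and CC 4 bases apart, an NF-kB-type pattern, in 24.3% and 17.6%, and GAA, TTC and GAA, each 2 bases apart, a heat shock pattern, in 0% and 0.466%. None of these 6 patterns was found in the Psmb10 window, and a match or its lack describes only these letters. The GAA letters are part of the interferon-type, heat shock and STAT patterns, so these can overlap, and no binding was measured.

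Psmb10 at 24 h had log2 values of 10.33, 10.47, 10.61, 10.64 and 10.80 in the SPIO mice. The CON mice had 9.91, 9.94, 10.04, 10.08 and 10.10. Every SPIO mouse was above every CON mouse. The change was 0.56 (SE 0.10, limma adjusted p = 4.75e-05), a 1.47-fold level. Psmb9 had 9.76, 10.01, 10.07, 10.22 and 10.72 in the SPIO mice. In CON they were 9.41, 9.60, 9.62, 9.62 and 9.72. The groups did not overlap, and the highest value was that of SPIO replicate 3. Psmb9 rose by 0.56 (SE 0.13, limma adjusted p = 0.000911). Psmb8 had 10.01, 10.22, 10.25, 10.34 and 10.64 in the SPIO mice. The sham values were 9.60, 9.71, 9.84, 9.84 and 9.94. These groups did not overlap either, and the rise was 0.50 (SE 0.11, limma adjusted p = 0.000908).

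At 0 h, right after the exposure, Psmb10 had 10.14, 10.24, 10.25, 10.28 and 10.43 in the SPIO mice. Those of CON were 9.48, 9.70, 9.72, 9.73 and 10.19. Only the highest CON mouse, replicate 1, reached into the SPIO range, and the difference was 0.50 (SE 0.10, limma adjusted p = 0.00134). Psmb9 had 9.56 to 9.89 in the SPIO mice and 9.01 to 9.66 in the CON mice, a difference of 0.39 (limma adjusted p = 0.0684). Psmb8 had 9.74 to 10.11 and 9.28 to 9.94, a difference of 0.34 (limma adjusted p = 0.0791). Neither passed the test, and in both genes CON replicate 1 was again the highest sham mouse. Without this array and SPIO 24 h replicate 3, all 3 genes passed at 0 h, with 0.61 for Psmb10 (limma adjusted p = 2.73e-05), 0.48 for Psmb9 (0.0109) and 0.43 for Psmb8 (0.0138). At 24 h the same fit gave 0.50, 0.42 and 0.42 for Psmb10, Psmb9 and Psmb8, all past the threshold (limma adjusted p of 0.000146, 0.00769 and 0.00513).

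At the other times none of the 3 genes passed. Psmb10 differed by 0.17, 0.14, 0.17 and 0.27 at 6, 48, 96 and 168 h. Psmb8 differed by 0.05, 0.04, 0.08 and 0.10, and Psmb9 by 0.04, -0.02, 0.12 and 0.14 at the same times. The 12 group means of Psmb10 ran from 9.76 ± 0.26 (SD, n = 5) in CON 0 h to 10.57 ± 0.18 in SPIO 24 h. The order in Psmb8 ran from 9.57 ± 0.23 in CON 0 h to 10.29 ± 0.23 in SPIO 24 h, and in Psmb9 from 9.31 ± 0.24 to 10.16 ± 0.36, with the same groups at the ends. SPIO 96 h lay next below SPIO 24 h in all 3 genes, at 10.57 ± 0.11, 10.28 ± 0.11 and 10.12 ± 0.16 for Psmb10, Psmb8 and Psmb9, so these neighbours differed by less than their SD. At the low end CON 24 h lay next above CON 0 h, at 10.01 ± 0.09, 9.79 ± 0.14 and 9.59 ± 0.11.

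**Figure D2:**
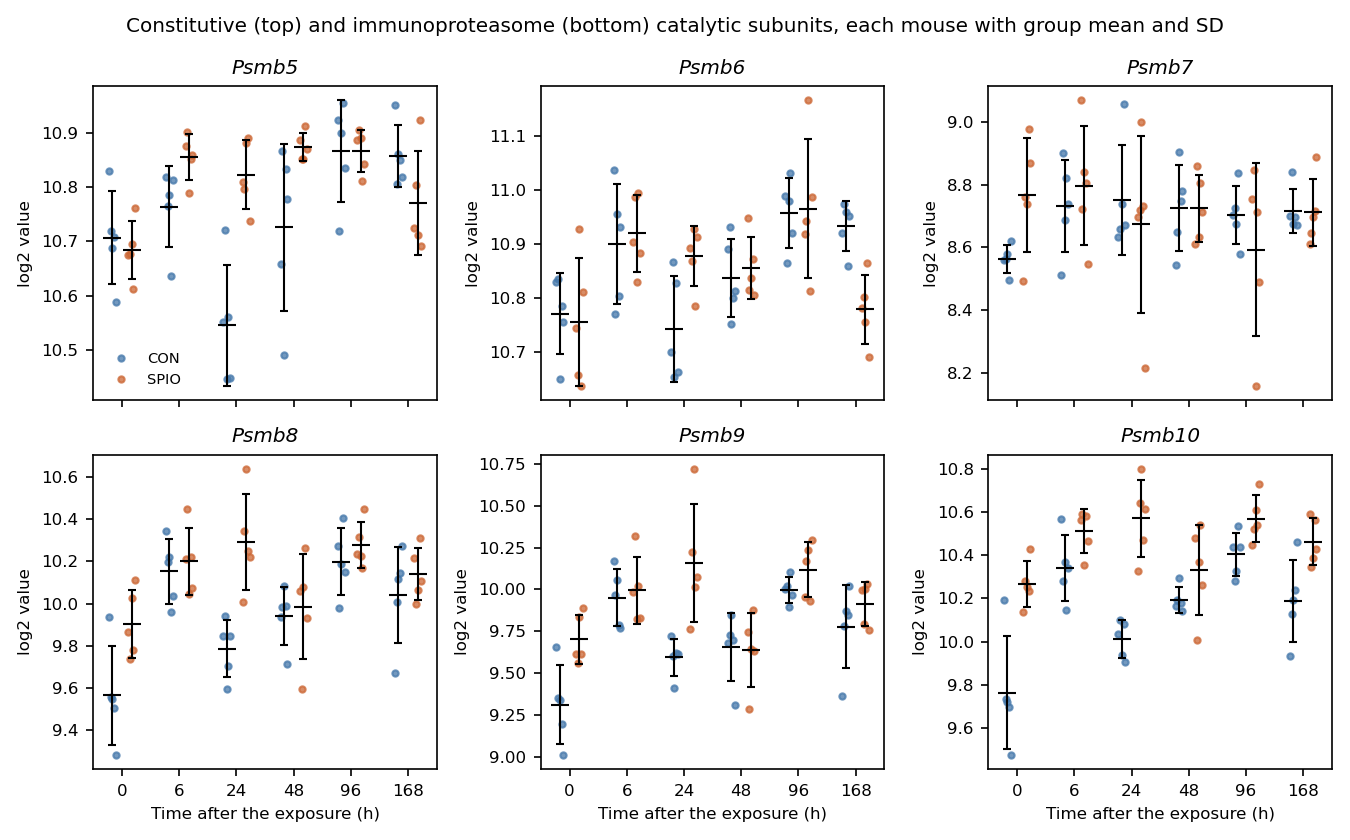
Log2 values of the constitutive subunits Psmb5, Psmb6 and Psmb7 (top) and of the immunoproteasome subunits Psmb8, Psmb9 and Psmb10 (bottom) against time after the exposure (h). Points are single mice (CON blue, SPIO orange), bars are the group mean and SD (n = 5), and each panel has its own axis. At 24 h every SPIO mouse lies above every CON mouse for Psmb5, Psmb8, Psmb9 and Psmb10, and CON 0 h is the lowest group for the 3 immunoproteasome subunits.

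The constitutive catalytic subunits moved less and not together. Psmb5, the chymotrypsin-like site, had 10.74, 10.80, 10.81, 10.88 and 10.89 in the SPIO mice at 24 h. The CON mice had 10.45, 10.45, 10.55, 10.56 and 10.72. The groups did not overlap, and Psmb5 rose by 0.28 (SE 0.06, limma adjusted p = 0.000428), or by 0.26 (0.00186) without both arrays that stood apart. Psmb6, the caspase-like site, had 10.79 to 10.93 and 10.65 to 10.87, a difference of 0.14 (limma adjusted p = 0.0862). Psmb7, the trypsin-like site, had means of 8.67 and 8.75, a difference of -0.08 (limma adjusted p = 0.65). At the other times none of the 3 passed. Psmb5 differed by -0.02, 0.09, 0.15, 0.00 and -0.09 at 0, 6, 48, 96 and 168 h. Psmb6 differed by -0.02, 0.02, 0.02, 0.01 and -0.15 at those times, and Psmb7 by 0.20, 0.06, -0.00, -0.11 and -0.01.

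To compare the 2 forms directly, the log2 value of each constitutive subunit was subtracted from that of its counterpart on the same array. The change of this difference between SPIO and CON was tested over the 10 mice of each time by an exact permutation test (two-sided), whose smallest possible p is 0.0079. None of the 18 tests (3 pairs at 6 times) passed after Benjamini-Hochberg adjustment over the 18. The pairs that reached the smallest possible p had an adjusted p of 0.0714. However far apart their groups lay, they could not pass unless further tests reached a p as low or nearly as low. A missed call here therefore does not show a lack of change. The Psmb10 minus Psmb7 difference at 24 h was 1.63, 1.74, 1.80, 1.92 and 2.40 in the SPIO mice. In CON they were 1.02, 1.20, 1.24, 1.40 and 1.44. The groups did not overlap, and the change was 0.64 (95% interval 0.34 to 0.93, exact p = 0.00794, adjusted p = 0.0714). The Psmb9 minus Psmb6 difference changed by 0.43 at 24 h (0.20 to 0.66, exact p = 0.0238, adjusted p = 0.107), with overlapping groups. The Psmb8 minus Psmb5 difference changed least, by 0.23 at that time (0.01 to 0.44, exact p = 0.0635, adjusted p = 0.163).

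At 0 h the Psmb9 minus Psmb6 difference was -1.13, -1.10, -1.09, -1.02 and -0.92 in the SPIO mice. The sham values were -1.75, -1.59, -1.48, -1.31 and -1.17. The groups did not overlap, and the change was 0.41 (95% interval 0.17 to 0.64, exact p = 0.00794, adjusted p = 0.0714). The Psmb8 minus Psmb5 difference changed by 0.36 (0.15 to 0.57, exact p = 0.0159, adjusted p = 0.0952) and the Psmb10 minus Psmb7 difference by 0.30 (exact p = 0.0873, adjusted p = 0.196). At 168 h the Psmb9 minus Psmb6 change was 0.29 (exact p = 0.0317, adjusted p = 0.114). The remaining 11 changes ran from -0.11 to 0.28. A linear model over the 12 groups, which pools the spread of all of them, called 4 of the 18. These were the pairs of Psmb8 and Psmb9 at 0 h and those of Psmb9 and Psmb10 at 24 h. In the permutation test the 0 h pairs of Psmb8 (0.42) and Psmb9 (0.48) passed without CON replicate 1, the 24 h pairs of Psmb9 (0.53) and Psmb10 (0.71) without SPIO replicate 1, and the 168 h pair of Psmb9 (0.35) without CON replicate 5. The adjustment still covered all 18 tests. These passes thus also rested on pairs of other times with the smallest possible p, and not on the left-out mouse alone.

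**Figure D3:**
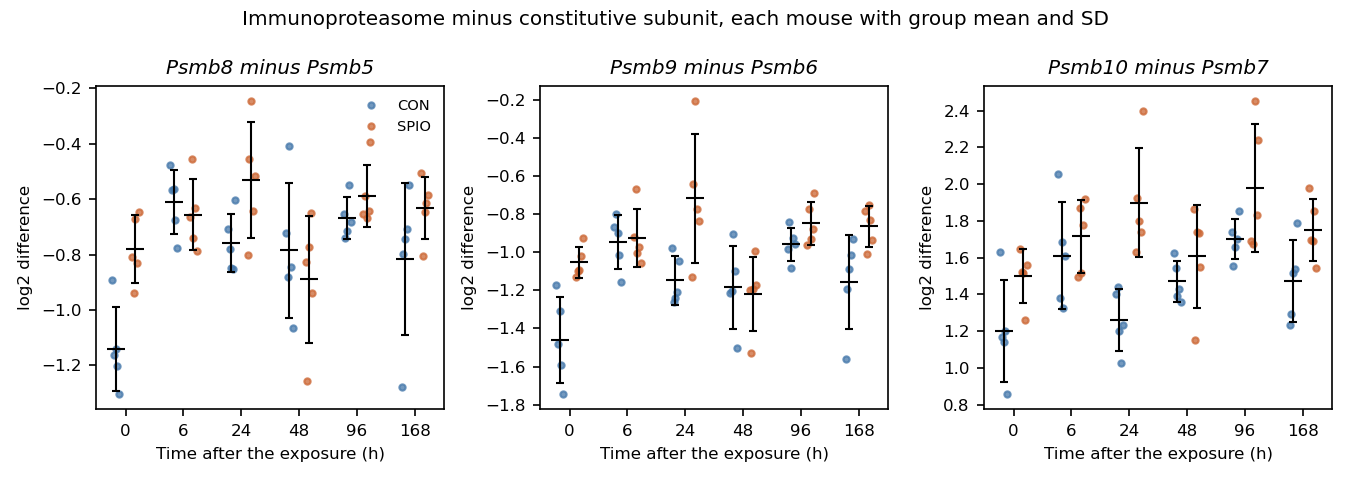
Log2 difference between an immunoproteasome subunit and its constitutive counterpart on the same array (vertical axis) by time after the exposure (h), for 3 pairs. Points are mice (CON blue, SPIO orange) and bars the mean and SD (n = 5). SPIO and CON do not overlap for Psmb9 minus Psmb6 at 0 h, where the change was 0.41, or for Psmb10 minus Psmb7 at 24 h, where it was 0.64.

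In the rest of the 20S core, all 4 structural beta genes were called higher at 24 h. Psmb2 rose by 0.31 (SE 0.07, limma adjusted p = 0.00109), Psmb3 by 0.30, Psmb4 by 0.23 and Psmb1 by 0.21. Of the 7 alpha ring genes, Psma2 was higher (0.19) and Psma7 lower, and the other 5 did not pass. In the 19S particle, 1 of 6 ATPase genes was higher (Psmc3, 0.21) and 1 lower (Psmc4, -0.45). Of 11 non-ATPase genes 5 were higher and 1 lower (Psmd7, -0.36). Psmd13, a lid subunit, had 9.20, 9.25, 9.28, 9.34 and 9.37 in the SPIO mice. The CON mice had 8.65, 8.74, 8.82, 8.84 and 9.16. The groups did not overlap, and Psmd13 rose by 0.45 (SE 0.08, limma adjusted p = 0.00014), or by 0.43 (0.000764) without both arrays that stood apart. In that fit Psmc4 was at -0.48 (0.0476) and Psmd7 at -0.35 (0.0202). The others were Psmd8 (0.27, limma adjusted p = 0.000678), Psmd2 (0.31), Psmd3 (0.35) and Psmd14 (0.25), the last of which encodes the deubiquitinase of the lid. Among the 3 chaperones that assemble the 19S base, Psmd9 was higher (0.32). SPIO lay above CON without overlap in 13 members, against 9.96% of all genes, and below it in 2, against 1.42%.

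The activators bind the core in place of the 19S cap. Psme1, a subunit of the interferon-inducible PA28 ring, had 11.13, 11.15, 11.28, 11.36 and 11.47 in the SPIO mice at 24 h. Those of CON were 10.84, 10.87, 10.94, 10.96 and 11.26. One CON mouse lay within the SPIO range, and Psme1 rose by 0.31 (SE 0.08, limma adjusted p = 0.0064). It rose by 0.26 without both arrays that stood apart (limma adjusted p = 0.0289). Its differences at 0, 6, 48, 96 and 168 h were 0.16, 0.26, 0.11, 0.13 and 0.09, none past the threshold. Psme4, the PA200 activator, was higher at 24 h (0.24, SE 0.09, limma adjusted p = 0.0325) and at 48 h (0.33, SE 0.09, limma adjusted p = 0.00791), and differed by -0.03, -0.05, -0.01 and -0.03 at the other times. The 24 h call was lost without any 1 of 6 arrays (CON replicates 3, 4 and 5, SPIO replicates 1, 2 and 3), with changes of 0.19 to 0.30 over the 10 arrays left out in turn. Psme3, the nuclear PA28 gamma, passed at no time, with values from -0.21 at 168 h to 0.21 at 24 h. Of the genes matched by name only, Psme3ip1 rose by 0.25 at 24 h (limma adjusted p = 0.0146) and Psmc3ip differed by 0.15.

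The counts of the wider group, and the sign of its median change, depended on how arrays were put on 1 scale. Centring each array on its median moved the median change of all genes at 24 h by -0.18, after which 4 members were higher and 8 lower, against 4.55% and 11.7% of all genes, and the median of the members was -0.03. A second quantile normalization gave 14 higher and 4 lower, against 7.77% and 6.93%, with medians of 0.10 for the members and 0.01 for all genes. Psmb8, Psmb9, Psmb10 and Psmd13 were the 4 that stayed higher after centring, and Psma7 stayed lower under both. At 48 h centring moved the median of all genes by -0.13 and left 0 members higher and 4 lower by limma, against 2.95% and 5.87% of all genes.

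The sham group of 24 h was low in these genes. Each group was set against the mean over its arm's other 5 groups. In CON 24 h 19 of the 42 genes were lower and 0 higher, from -0.36 to -0.14, where 28.7% of all genes were called and 21.3% were lower. The median of the members was -0.14, against -0.05 for all genes. In SPIO 24 h 0 of the 42 were called by limma (2 at an unadjusted p under 0.05), against 0.126% of all genes, and the median was 0.00. Psmb5 was at -0.24 in CON 24 h and 0.01 in SPIO 24 h. Psmd13 was at -0.36 and 0.02, and Psmd8 at -0.24 and -0.02. The immunoproteasome genes were split between both sides and passed in neither. Psmb8 was at -0.19 in CON 24 h and 0.19 in SPIO 24 h, Psmb9 at -0.14 and 0.29, and Psmb10 at -0.17 and 0.14. Centring turned the direction of all genes in CON 24 h, whose median moved from -0.05 to 0.08, with 21.6% higher and 6.64% lower. Of the members 4 were then higher and 5 lower, with a median of -0.01.

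CON 0 h had 6 lower members and 0 higher, against 10% of all genes (4.22% lower). Psmb9 (-0.48, limma adjusted p = 0.000775), Psmb10 (-0.47, 4.36e-05) and Psmb8 (-0.46, 0.000429) lay farthest below the other sham groups, followed by Psme1 (-0.22), Psma7 (-0.18) and Psmc2 (-0.13). Without CON 0 h replicate 1 and SPIO 24 h replicate 3 there were 9 lower, against 5.31% of all genes, with Psmb9, Psmb10 and Psmb8 at -0.57, -0.57 and -0.55. In SPIO 0 h, 4 were lower and 0 higher, against 3% of all genes (1.91% lower). They were Psmb3 (-0.27), Psme1 (-0.24), Psmd14 (-0.23) and Psmb5 (-0.15), of which Psmd14 was lost without both arrays that stood apart (limma adjusted p = 0.053). The immunoproteasome genes in SPIO 0 h lay between -0.27 and -0.22 without passing. CON 96 h had 3 higher members, where 1.07% of all genes were called and 0.923% higher (Psmb10 0.30, Psmb2 0.21 and Psmb4 0.17). CON 6 h had 2 higher, against 7.67% of all genes called and 5.32% higher (Psmb10 0.23 and Psmd8 0.16), and CON 168 h had 2 higher, Psmd13 and Psmd9, against 5.28% called and 4.63% higher. These small counts rested on single arrays. With each array of the group left out in turn, SPIO 0 h had 1 to 4 (1 without replicate 1, 2 or 4, 2 without 3), CON 96 h 0 to 6 (0 without replicate 1 or 4, 1 without 3, 6 without 2) and CON 6 h 0 to 4 (0 without replicate 1, 2 or 3, 4 without 4). CON 168 h had 1 without replicate 1 or 5 and 0 without any of the other 3, and CON 0 h had 3 to 9 (3 without replicate 5). In SPIO 96 h 1 was higher (Psmb3, 0.24), against 0.566% called and 0.434% higher, and it was lost without replicate 2, 3 or 5. In CON 48 h and in SPIO 6, 48 and 168 h 0 were called by limma (6, 2, 4 and 7 at an unadjusted p under 0.05), against 5.36%, 4.39%, 0.0934% and 0.176% of all genes.

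**Figure D4:**
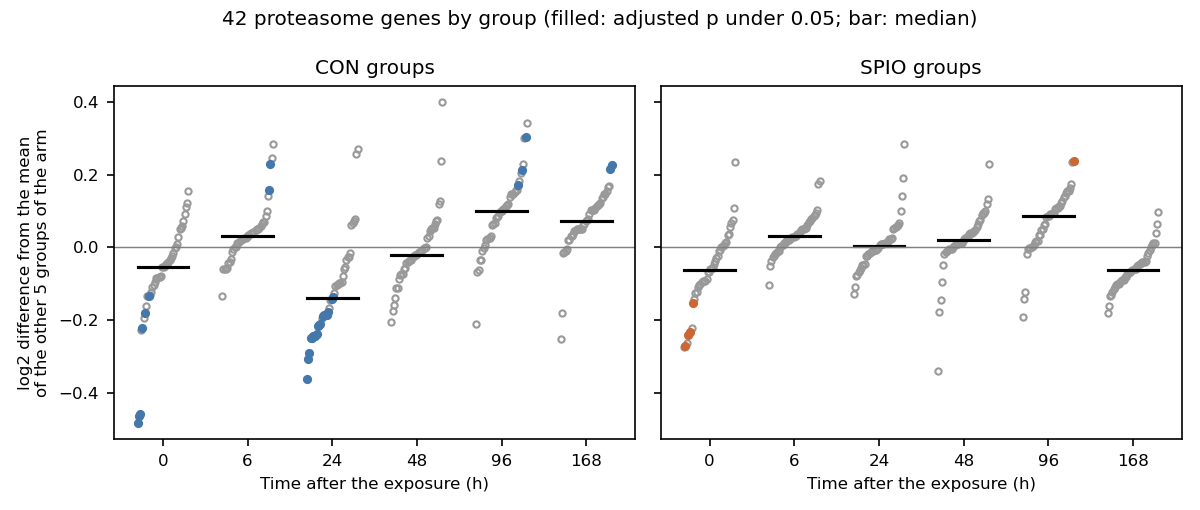
Log2 difference of each of the 42 proteasome genes (circles) in a group from the mean over its arm's other 5 groups, by time after the exposure (h), for CON (left) and SPIO (right). Filled circles passed an adjusted p under 0.05 and bars are medians. CON 24 h holds 19 lower genes with a median of -0.14, and SPIO 24 h holds 0 called genes with a median of 0.00.

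Whether the effect at 24 h differed from that at the other times was tested as 1 contrast, the SPIO minus CON difference at 24 h against its mean at the other 5 times. It passed for 6 of the 42 genes, all higher, where 4.61% of all genes passed and 4.01% were higher. These were Psmd13 (0.38, limma adjusted p = 0.0203), Psmd2 (0.32), Psmb2 (0.30), Psmb5 (0.25), Psmb4 (0.24) and Psmd8 (0.23). Psmb9 (0.43, limma adjusted p = 0.056), Psmb8 (0.38, 0.0562) and Psmb10 (0.31, 0.0677) did not pass. The 6 calls depended on single mice of both arms. The count was 0 without CON 24 h replicate 3 or 5, 2 without SPIO replicate 2, 10 without SPIO replicate 5 and 11 without CON replicate 2. It was 3 without both arrays that stood apart, and 0 after centring. The same contrast at the other 5 times called 0 members by limma (4, 0, 6, 1 and 19 at an unadjusted p under 0.05 at 0, 6, 48, 96 and 168 h, against 0.044%, 1.47%, 0.264%, 0% and 0.198% of all genes passing the adjusted threshold).

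Psma7, an alpha ring subunit on chromosome 2, was called at 5 of the 6 times, more than any other member. At 6 h the SPIO mice had 10.57, 10.61, 10.72, 10.75 and 10.88. In CON they were 10.90, 10.97, 10.98, 11.00 and 11.09. At 24 h the values were 10.59, 10.64, 10.67, 10.77 and 10.85 against 10.89, 10.97, 10.99, 11.07 and 11.19. In both, and at 48, 96 and 168 h, every SPIO mouse was below every CON mouse. The changes were -0.28, -0.32, -0.33, -0.30 and -0.32 at 6, 24, 48, 96 and 168 h, each with SE 0.06 and with limma adjusted p from 0.000206 to 0.00801. The 24 h change was -0.34 without both arrays that stood apart (limma adjusted p = 0.000368). At 0 h the difference was -0.09 (limma adjusted p = 0.441). Without SPIO 6 h replicate 4 the change at that time was -0.25 and was not called. The 6 SPIO means of Psma7 spanned 10.62 to 10.72, the CON 0 h mean was 10.81, and the later CON means were 10.95 to 11.02.

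A second Psma7 probe set gave -0.24 at 6 h (limma adjusted p = 0.0275, over all probe sets) and -0.20, -0.29 and -0.36 at 48, 96 and 168 h, all past the threshold. At 24 h it gave 0.01 (limma adjusted p = 0.968). The probe sets thus parted at 24 h and had the same sign before and after. Of 19 other probe sets with a mean of at least 6, 8 belonged to genes called at 24 h. For 3 the sign was that of the main probe set (Psmb3 0.39, Psmd13 0.34 and 1 of Psme4 0.32). For 5 it was opposite: Psma7 (0.01), Psmb4 (-0.33), Psmc4 (0.23), Psmd7 (0.02) and another of Psme4 (-0.21). None of these 5 passed. Psmb5, Psmb9 and Psmb10 were read by 1 probe set each, and the second of Psmb8 was dim.

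**Figure D5:**
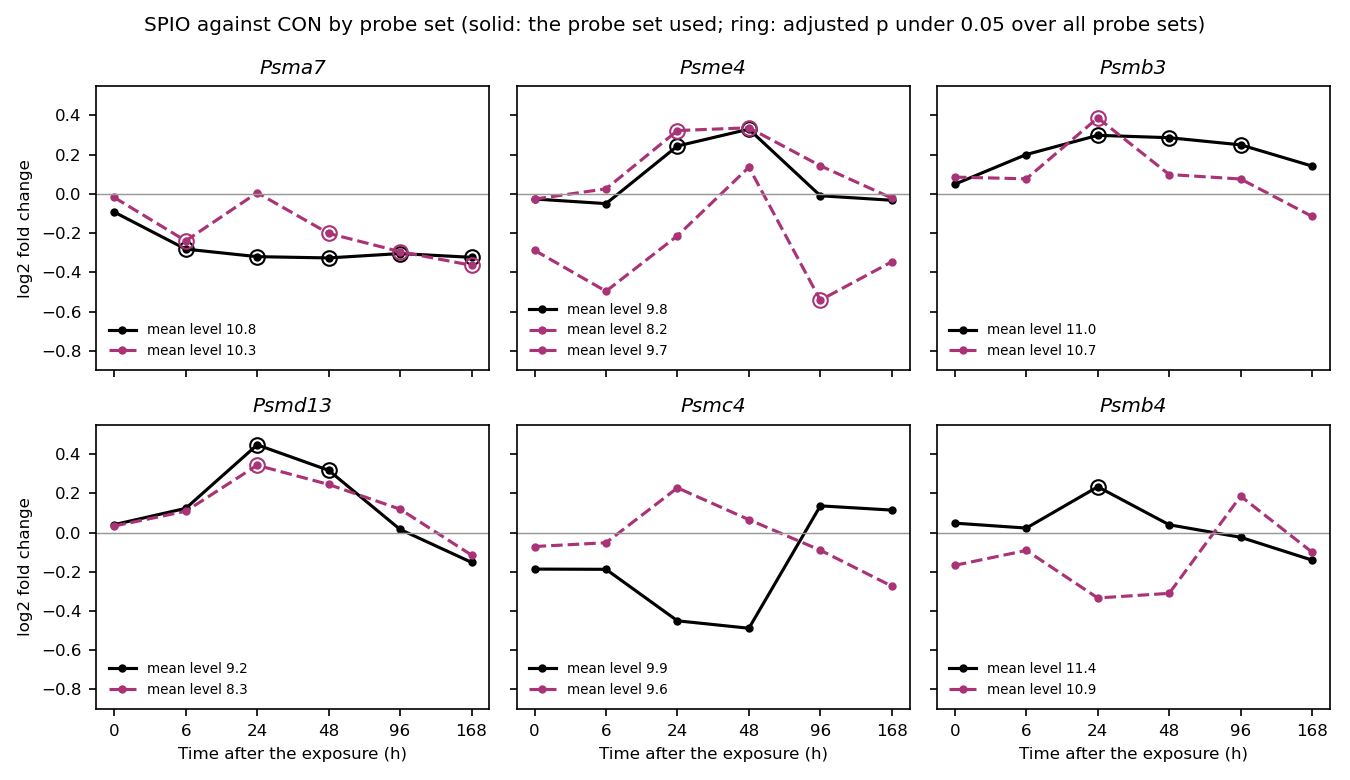
Log2 fold change of SPIO against CON (vertical axis) by time after the exposure (h) for 6 genes with several probe sets. The solid black line is the probe set used, dashed lines are the others, legends give each mean log2 level, and rings mark an adjusted p under 0.05 over all probe sets. The probe sets of Psmd13 follow each other, those of Psma7 part at 24 h (-0.32 and 0.01), and those of Psmc4 and Psmb4 have opposite signs there.

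From 48 h on, fewer members were called than at 24 h. At 48 h the higher genes were Psme4, Psmd13 (0.32, limma adjusted p = 0.00813), Psmb3 (0.29, 0.0058), Psmd9 (0.28) and Psmc3 (0.20), and the lower ones Psma7 and Psmc4 (-0.49). Psmd13 had 9.26 to 9.38 in the SPIO mice and 8.80 to 9.19 in the CON mice, Psme4 9.90 to 10.02 and 9.48 to 9.78, and Psmb3 11.00 to 11.23 and 10.72 to 10.96. These 3 did not overlap, against 6.61% of all genes with SPIO above. At 96 h Psma4, another alpha ring subunit, had 10.54 to 10.94 and 11.05 to 11.35 and was at -0.34 (limma adjusted p = 0.0198). At 168 h Psma4 was again at -0.34 (limma adjusted p = 0.0155), with 10.57 to 10.99 in the SPIO mice and 11.02 to 11.14 in the CON mice. Psmd12, a lid subunit, was at -0.24 (limma adjusted p = 0.0356), with 9.54 to 9.86 and 9.87 to 10.04. These late calls were thin. With arrays left out in turn, Psma4 ranged from -0.38 to -0.28 at 96 h and was not called without CON replicate 4 or SPIO replicate 2 or 3. At 168 h it ranged from -0.41 to -0.31 and was not called without SPIO replicate 1, 3 or 5, and Psmd12, from -0.28 to -0.20, was not called without any 1 of 7 arrays (CON replicates 1 to 4, SPIO replicates 1, 3 and 5). At 168 h the median of the 42 differences was -0.10, against 0.01 for all genes, and 6 members lay below CON without overlap, against 2.28% of all genes.

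Genes that build, regulate or feed the proteasome were read from lists. Beside their counts stand the shares of all genes called, 20.3% higher and 3.66% lower at 24 h and 10.7% and 1.89% at 48 h. Without both arrays that stood apart these shares were 17.7% and 3.09% at 24 h, and 2.58% and 1.67% at 0 h. Of the 5 chaperones of 20S assembly, 4 were higher at 24 h and 1 lower, with Pomp, the maturation factor, at 0.26 (limma adjusted p = 0.00032) and Psmg1 at 0.35 (0.000394). Their median was 0.26, against 0.09 for all genes. These counts were the same without both arrays that stood apart, with Pomp at 0.25 and Psmg1 at 0.34. Of 7 regulators measured, 2 were higher and 1 lower at 24 h. Nfe2l1, the transcription factor that drives proteasome genes when proteasome activity falls short, rose by 0.35 (limma adjusted p = 0.000883), and Nfe2l2, that of the oxidative stress response, was at -0.35 (0.000972). The fit without both arrays had 1 higher and 1 lower, at 0.39 for Nfe2l1 and -0.32 for Nfe2l2, and Psmf1 was lost. At 48 h they were at 0.27 and -0.23, both past the threshold. Of 9 ubiquitin shuttles and proteasome-bound factors, 2 were higher and 1 lower at 24 h (Ube3c 0.25, Txnl1 -0.27), and of 6 p97 genes 1 was higher at 24 h (Faf1, 0.21) and at 48 h (0.28). Faf1 was not called at 24 h without both arrays that stood apart (0.21, limma adjusted p = 0.0605), and Uchl5 was then lower at 0 h (-0.36, 0.0432). Only 1 of 6 genes of ubiquitin and its activating enzymes was measured with its own probe set, and it passed at no time.

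Of 11 genes of antigen processing for MHC class I, the pathway the immunoproteasome feeds, 4 were higher at 24 h and 0 lower. The shares of all genes were 20.3% and 3.66%. The peptide transporter genes were at 0.57 for Tap1 (limma adjusted p = 0.000278) and 0.48 for Tap2 (0.000136). At 0 h 2 were higher and 1 lower, with Tap1 at 0.40 (0.0325) and the chaperone Pdia3 at -0.36 (0.0215), against 2.56% and 1.11% of all genes. Without both arrays that stood apart 2 were higher at 24 h, Tap1 (0.42, 0.00296) and Tap2 (0.41, 0.00118), and Tapbp and Tapbpl were lost. In that fit 2 were higher at 0 h, with Tap1 at 0.46, and Pdia3 was not called (-0.29, 0.069). At 168 h 1 was lower, again Pdia3 (-0.35). Of 13 interferon response genes 3 were higher at 24 h, with Usp18 at 0.65 and Irf7 at 0.60, and 1 lower. That is near the share of all genes called higher, 20.3% (3.66% lower). In the fit without both arrays 2 were higher, at 0.59 and 0.49, and 2 lower, while 1 was higher at 0 h (Gbp2, 0.44). At 48 h 3 were lower, against 1.89% of all genes, among them Stat2 (-0.52) and Irf9 (-0.36), and Stat2 was the 1 lower gene at 0, 96 and 168 h.

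Markers of other cell types and states also differed at 24 h, and in part at times when the immunoproteasome genes did not. Of all genes, 2.56%, 20.3% and 10.7% were called higher at 0, 24 and 48 h, and 1.11%, 3.66% and 1.89% lower. The mean of 17 leukocyte genes was 9.67 in SPIO 24 h (9.50 to 9.85) and 9.09 in CON 24 h (8.73 to 9.43), and 9 of the 17 were higher, with a median of 0.67 (Coro1a 0.76, Cd52 0.87). At 0 h the means were 9.40 (9.16 to 9.63) and 9.04 (8.73 to 9.28), and 4 of 17 were higher, with a median of 0.31 (the B cell genes Cd79a 1.02 and Ms4a1 1.85 among them). At 0 h 5 of the 17 lay below 0 without passing. They were the neutrophil genes S100a8 (-0.41) and S100a9 (-0.48), the myeloid genes Itgam (-0.26) and Itgax (-0.21), and Laptm5 (-0.05). At 48 h 1 was higher (Itgax, 0.45). At 96 h the leukocyte means were 9.83 (9.74 to 9.97) in SPIO and 9.45 (9.19 to 9.61) in CON. None of the 17 was called there, and the median was 0.31. The SPIO means of Itgam (6.20 against 6.63 in CON) and Lyz2 (14.51 against 14.52) lay below CON without passing. The mean of Psmb8, Psmb9 and Psmb10 differed by 0.12 at 96 h. At 6 and 168 h the leukocyte mean differed by -0.15 and 0.12, and that of the 3 subunits by 0.09 and 0.17. Without both arrays that stood apart the leukocyte mean was 9.63 (9.50 to 9.85) in SPIO 24 h and 8.98 (8.73 to 9.11) in CON 0 h. In that fit 6 of the 17 were higher at 24 h, with a median of 0.64 and Ptprc at 0.37 (limma adjusted p = 0.104), and 4 at 0 h, with a median of 0.36. Ptprc, the pan-leukocyte marker, had means of 11.04 in CON 24 h and 11.45 in SPIO 24 h, and the dimmest marker in these groups was Cd79a, at 5.11 and 5.73. All 8 cell cycle genes measured were higher at 24 and 48 h and none was called at 0 h. Their mean differed by 0.84 at 48 h and -0.15 at 0 h, where the mean of Psmb8, Psmb9 and Psmb10 differed by 0.05 and 0.41. Of 8 heat shock chaperones, 5 were lower at 0 h, 7 at 24 h and 6 at 48 h, and Hspa1a was at -3.47 at 24 h. Their mean at 24 h was 11.32 in SPIO and 12.79 in CON, and its difference was -1.07, -1.46 and -1.28 at 0, 24 and 48 h. The cell cycle and heat shock counts at 0 and 24 h were the same without both arrays that stood apart. Of 7 lung epithelium genes 1 was higher at 24 h (Ager, 0.15), and of 3 endothelium genes 1 (Pecam1, 0.35). The 3′ minus 5′ difference of the Gapdh and actin control probe sets, a sign of RNA quality, had a median of 0.62 in SPIO and 0.47 in CON arrays. SPIO lay above CON without overlap at 6 h (0.59 to 0.79 and 0.39 to 0.53) and at 96 h (0.61 to 1.16 and 0.39 to 0.59). The same held at 168 h (0.56 to 0.78 and 0.41 to 0.52), so exposure and this measure cannot be told apart at these times. At 0, 24 and 48 h the arms overlapped, with means that differed by 0.05, 0.08 and 0.16. With that difference as a term, chosen after the data were seen, 22 members were called at 24 h, 0 at 96 h and 1 at 168 h, against 23.7%, 0.148% and 0.824% of all genes, and Psmb8, Psmb9 and Psmb10 were at 0.50, 0.55 and 0.55 at 24 h, all past the threshold. The sizes of the late changes stayed near those without the term. With no overlap at 96 and 168 h, the term cannot separate this measure from exposure there. Psma7 was at -0.30 at 96 h (limma adjusted p = 0.0561) and -0.32 at 168 h (0.00706), Psma4 at -0.34 at both times (0.15 and 0.0513), and Psmd12 at -0.23 at 168 h (0.103). The part of leukocytes, of the cell cycle and of the heat shock genes in the results was not tested.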

How the data were processed

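Total RNA of 1 lung lobe each (right diaphragmatic) of 60 Balb/c males was labelled from an oligo-dT primer and hybridized by the authors to Affymetrix mouse arrays, 1 array per mouse. The authors deposited log2 values of each probe set, made with RMA per the labels, which corrects background, quantile-normalizes and summarizes the probes. Its version: not given in the sources used here. No column was left without a sample (0 unmatched), and hybridization batch and exposure day were not used here.

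Of 45101 probe sets, 64 controls were left out, and 34945 with exactly 1 gene symbol in the platform annotation gave 18193 genes, each read by the probe set with the highest mean over the 60 arrays. A further 932 had several symbols and 9160 had none. These stood for no gene and entered only the fit and the adjustment over all probe sets. The number of arrays limits the precision. One model with a mean for each of the 12 groups was fitted with limma 3.58.1 in R 4.3.3 (48 residual degrees of freedom, 52.2 after moderation). Calls were made at an adjusted p under 0.05 (Benjamini-Hochberg over all genes) with no fold minimum. Contrasts were SPIO minus CON at each of the 6 times, each of the 12 groups minus the mean over its arm's other 5 groups, and the effect at a time minus the mean effect at the other 5. Differences between paired subunits were tested by exact permutation over the 252 divisions of 10 mice (Python 3.11.15, numpy 2.4.6, pandas 2.3.3, SciPy 1.17.1), with 95% intervals from a linear model over the 12 groups. Figures were drawn with matplotlib 3.10.9. The fits were tested on simulated data.

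The members, the lists and the tests were chosen with earlier results of these data known. The genes named at every time were the catalytic, immunoproteasome and activator genes, plus the 4 called members with the smallest p at each time and, of each related list, the 2 with the smallest p among those called. Other members named, such as further genes called at 24 or 48 h and those with several probe sets, were chosen after their values were seen. Labels call the mice biological replicates. Alternatives covered the probe set, dim genes, scaling, array weights, moderation, a fold minimum, left-out arrays, a replicate block and a test close to that of the methods (ANOVA with unequal variance over the groups, then Games-Howell comparisons in place of the stated Tukey test). A term for the 3′ minus 5′ difference, leaving out single arrays for the comparisons within an arm and between times, and the lists without both arrays that stood apart, were added after the data were seen. Promoter windows were RefSeq sequences of GRCm38.p6, matched by Entrez gene ID for 35 of the 42 genes.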

Additional observations from a re-analysis of the deposited data

Results flagged for a closer look

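The highest or lowest mouse stood off from its group in 3 of the 108 groups of 5 examined, for the named subunits and the paired differences, where about 1 in 20 would do so by chance. Psmb7 was 8.84 in CON 168 h replicate 2, with the other mice at 8.67 to 8.70. Psmb7 was 9.06 in CON 24 h replicate 4, with the others at 8.63 to 8.74. The Psmb8 minus Psmb5 difference was -0.39 in SPIO 96 h replicate 5, with the others at -0.67 to -0.59.

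The SPIO effect at 24 h differed from the mean effect at the other 5 times, by limma, for 6 members. The differences were 0.30 for Psmb2, 0.24 for Psmb4, 0.25 for Psmb5, 0.38 for Psmd13, 0.32 for Psmd2 and 0.23 for Psmd8. For Psmd13 and Psmb5 the group that stood off the rest of its arm at 24 h was CON, at -0.36 and -0.24, and SPIO was at 0.02 and 0.01.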

How the results depend on the processing

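Values are counts of the 42 genes called, unless a change is named, and the cause of a moved count was not tested. Trend and robust moderation moved no count by over 1.5 times. Psmb10 at 24 h and Psma7 at 24 and 48 h passed under 12 of the 12 settings other than leaving out single arrays and the fold minimum, with Psmb10 between 0.38 and 0.56. Psmb8 and Psmb9 at 24 h passed under 11 of these 12. With all probe sets in the adjustment, the counts were 4 at 96 h, 1 in CON 6 h, 2 in SPIO 0 h and 0 in CON 96 h, CON 168 h and SPIO 96 h. Array weights gave 3, 2, 12 and 8 at 0, 6, 48 and 168 h, then 13, 4, 6, 17 and 12 in CON 0, 6, 48, 96 and 168 h, and 1, 12, 2 and 15 effects that differed between times at 0, 24, 48 and 168 h. After centring, the counts were 12, 4 and 4 at 24, 48 and 96 h, 1, 9, 3, 0 and 0 in CON 6, 24, 48, 96 and 168 h, 2 in SPIO 0 h, 0 in SPIO 96 h and 0 effects that differed at 24 h. A second quantile normalization gave 3 at 0 h, 10 in CON 0 h, 11 in CON 24 h, 0 in CON 96 and 168 h and 1 effect that differed at 24 h. Only genes with a log2 value of at least 6 on at least 5 arrays (11899 genes, 40 members) gave 2 at 0 h, 4 at 96 h, 2, 8 and 4 in CON 48, 96 and 168 h, and 10 and 1 effects that differed at 24 and 168 h. A fold minimum of 1.5 left 0 in every comparison that had calls, Psmb10, Psmb8, Psmb9 and Psma7 included. Each time fitted alone gave 0, 0, 13, 2, 0 and 0 at the 6 times, and the unequal-variance ANOVA with Games-Howell comparisons (the methods state Tukey's) 0, 0, 9, 1, 1 and 1. The 3′ minus 5′ term, added after seeing the data, gave 0 at 96 h, 1 at 168 h, 1 in CON 48 h, 2 in SPIO 0 h and 0 in SPIO 96 h. Averaging the probe sets of a gene gave 3 at 48 h, 0 in CON 168 h and 3 effects that differed at 24 h, and reversed Psme4 at 24 h to -0.044.

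Without both arrays that stood apart, the counts were 3 at 0 h, 4, 1 and 8 in CON 6, 48 and 96 h and 3 effects that differed at 24 h, and the pairs of Psmb8 and Psmb9 at 0 h (changes of 0.42 and 0.48) and of Psmb10 at 24 h (0.66) passed. A linear model in place of the permutation test passed those pairs, at 0.36, 0.41 and 0.64, and the Psmb9 pair at 24 h, at 0.43. The mean of probe sets passed the Psmb8 pair at 0 h (0.19) and 96 h (0.14), the Psmb9 pair at 0 h (0.41) and the Psmb10 pair at 24 h (0.64).

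Leaving out each array in turn gave 1 to 3 at 0 h (3 without CON replicate 1), 0 to 1 at 6 h (0 without SPIO replicate 4), 18 to 24 at 24 h, 4 to 9 at 48 h (4 without CON replicate 3), 1 to 4 at 96 h (4 without SPIO replicate 1 or 4, 1 without CON replicate 4 or SPIO replicate 2 or 3) and 1 to 6 at 168 h (6 without CON replicate 5 or SPIO replicate 4, 5 without SPIO replicate 2, 1 without SPIO replicate 1, 3 or 5). Against the rest of the arm the ranges were 3 to 9 in CON 0 h (3 without replicate 5), 0 to 4 in CON 6 h (0 without replicate 1, 2 or 3, 4 without 4), 13 to 20 in CON 24 h, 0 to 5 in CON 48 h (4 without replicate 2, 5 without 4), 0 to 6 in CON 96 h (0 without replicate 1 or 4, 1 without 3, 6 without 2) and 0 to 1 in CON 168 h. They were 1 to 4 in SPIO 0 h (1 without replicate 1, 2 or 4, 2 without 3), 0 to 1 in SPIO 96 h (0 without replicate 2, 3 or 5) and 0 in the others. Effects that differed ranged from 0 to 11 at 24 h (0 without CON replicate 3 or 5, 2 without SPIO replicate 2, 10 without SPIO replicate 5, 11 without CON replicate 2) and 0 to 8 at 168 h (1 without CON replicate 5, 2 and 8 without SPIO replicates 2 and 4). The pair changes ranged from 0.32 to 0.42 (Psmb8) and 0.34 to 0.48 (Psmb9) at 0 h, 0.30 to 0.53 (Psmb9) and 0.51 to 0.71 (Psmb10) at 24 h, and 0.19 to 0.35 (Psmb9) at 168 h. Single arrays left out let these pass: CON 0 h replicate 1, SPIO 24 h replicate 1 and CON 168 h replicate 5. In each permutation setting the adjustment covered all 18 tests, so a pass also rested on the p-values of the other pairs.

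The replicate numbers did not pair the mice: of 30 same-numbered pairs, 7 had deviations that correlated over 0.1 (-0.51 to 0.47). With the replicate number as a block, 1 member was called in CON 6 h and 1 in CON 48 h, and the linear model passed the pairs of Psmb8 (0.36) and Psmb9 (0.41) at 0 h and of Psmb9 (0.43) and Psmb10 (0.64) at 24 h.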
